A study of Saccharomyces cerevisiae with 24 samples.

Results

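The transcripts followed here are those of 10 genes by which Saccharomyces cerevisiae takes up iron that is not bound to siderophores and hands on the copper this needs. They are 10 of the 7140 features counted. They were chosen by name, from the known functions of their products, and with earlier results of these data known. FRE1 and FRE2 encode surface reductases, FET3 and FTR1 the oxidase and permease of high-affinity uptake, ATX1 and CCC2 the copper delivery to the oxidase, FET5, FTH1 and SMF3 the vacuolar transporters, and FET4 the low-affinity transporter. Cells of strain yMH914, an S288C derivative in which HAP1 was repaired, of mating type MATa and carrying ura3D0 and his3D200 as well as leu2D0, lys2-128d and the repaired HAP1, were grown in air for the 0 min sample and placed under 100% nitrogen for 5 or 10 min, 30 or 60 min, 120 or 180 min, or 240 min. Polyadenylated RNA of each culture was sequenced, with 1 library for each of the 8 times in each of 3 courses, 24 libraries in all. Every group carries the same alleles, and each library is RNA of a whole liquid culture. The methods state that cells were diluted after the 0 min sample had been collected, and no library here is of cells diluted and left in air, so what dilution and low oxygen each did between 0 min and any later time cannot be told apart.

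A yeast cell first reduces ferric iron outside the membrane. The ferrous iron is then oxidized again by Fet3, a multicopper oxidase that consumes oxygen as it works, and carried in by its partner Ftr1. Fet3 receives its copper in the secretory pathway, where the pump Ccc2 loads it with copper brought by the chaperone Atx1. Fet4 carries ferrous iron and other divalent metals with lower affinity and needs no oxygen. Aft1 and its paralog Aft2 activate many of these genes when iron is scarce, the copper-sensing factor Mac1 activates FRE1, and Rox1, a repressor made in air, is known to act on FET4.

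Totals of 4980240 to 16346113 counts per library, with a median of 9536702, stood behind the values, and the 10 genes had 20 to 11380 counts in a library with a median of 593.5. The libraries of course 1 stood apart: between libraries of the same time, chi-square per degree of freedom was 163 to 312 where course 1 was one of the pair and 21.5 to 54.2 between courses 2 and 3. The labels name the 3 courses as biological replicates, and the methods describe the sequencing of 1 course only. The deleted markers URA3 and HIS3 had 0 to 2 counts, LEU2 had 0, and the a-cell receptor gene STE2 had 4321 to 16418 counts against 31 to 206 for the alpha-cell gene STE3.

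The stretches upstream of the genes are shown first because 9 of the 10 share a short sequence. Aft1 and Aft2 are known to activate many of these genes, so the search for their motif was not independent of the choice of genes. The counts of matches are given as a description. The 500 bases before each start codon were read from the RefSeq copy of the R64 genome and searched on both strands for the core of the Aft1 and Aft2 motif, GCACCC. It was found in 9 of the 10 windows, 13 times in all, whereas 457 of 6000 protein-coding genes with a full window (7.62%) hold it. The longer form TGCACCC, which contains the core, was found in 8 of the 10 windows and in 2.33% of the 6000. The lines give the strand of the gene from 5′ to 3′, with 20 bases on either side of the outermost matches and each match in capitals, so that GGGTGC is the core on the opposite strand. FET3, FTR1 and CCC2 are shown because their transcripts fell, and FET5, SMF3 and FET4 because they hold the same core and their transcripts followed other courses. The FET3 line covers chrXIII:388422-388597, FTR1 chrV:461889-462125 on the minus strand, CCC2 chrIV:1005365-1005458, FET5 chrVI:48992-49037, SMF3 chrXII:212268-212383 on the minus strand and FET4 chrXIII:914725-914770 on the minus strand.
FET3: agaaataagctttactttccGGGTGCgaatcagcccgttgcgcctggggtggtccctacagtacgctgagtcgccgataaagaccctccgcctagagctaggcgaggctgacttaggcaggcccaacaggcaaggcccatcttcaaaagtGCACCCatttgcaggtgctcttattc
FTR1: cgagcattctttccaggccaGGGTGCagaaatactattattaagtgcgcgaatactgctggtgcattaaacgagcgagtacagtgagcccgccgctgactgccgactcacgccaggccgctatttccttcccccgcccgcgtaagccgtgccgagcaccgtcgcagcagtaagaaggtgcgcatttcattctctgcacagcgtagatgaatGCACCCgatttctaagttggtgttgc
CCC2: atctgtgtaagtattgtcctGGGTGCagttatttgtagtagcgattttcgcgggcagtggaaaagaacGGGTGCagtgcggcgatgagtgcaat
FET5: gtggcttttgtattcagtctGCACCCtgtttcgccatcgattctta
SMF3: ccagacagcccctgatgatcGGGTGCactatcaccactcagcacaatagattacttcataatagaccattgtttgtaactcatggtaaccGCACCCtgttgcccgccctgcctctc
FET4: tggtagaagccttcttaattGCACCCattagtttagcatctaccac

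FRE1 was the exception, with no GCACCC in its window, and looser forms of the Aft1 and Aft2 motif were not searched. It held 3 copies of TTTGCTC, a motif of the copper-sensing factor Mac1, which 8.62% of the 6000 windows hold and which otherwise occurred among the 10 genes only before FTR1, in 1 copy on the opposite strand. The FRE1 line covers chrXII:568261-568497, with the Mac1 motif in capitals.
FRE1: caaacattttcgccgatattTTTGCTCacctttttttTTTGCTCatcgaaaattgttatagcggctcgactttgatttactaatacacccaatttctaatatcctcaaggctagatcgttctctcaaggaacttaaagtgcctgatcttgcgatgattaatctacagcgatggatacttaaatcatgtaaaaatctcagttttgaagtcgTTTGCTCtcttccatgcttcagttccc
The core of the Rox1 motif, ATTGTT, was found before FRE1, ATX1 and SMF3, 3 of the 10 genes, and in 48.9% of all windows, and the longer ATTGTTCTC, which contains it, before none of the 10 and in 1.13% of all. The Hap1 motif was found before none of the 10 genes and in 0.35% of all windows, and the motif of the zinc factor Zap1 before none and in 0.15%. A match is a string of letters and not a shown binding site, and the window of ATX1, FTH1, FET5 or SMF3 runs into a neighbouring gene by 65 to 257 bases. Sites farther upstream or with other letters were not searched, so no match, as for Rox1 before FET4, does not mean no site.

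**Figure D1:**
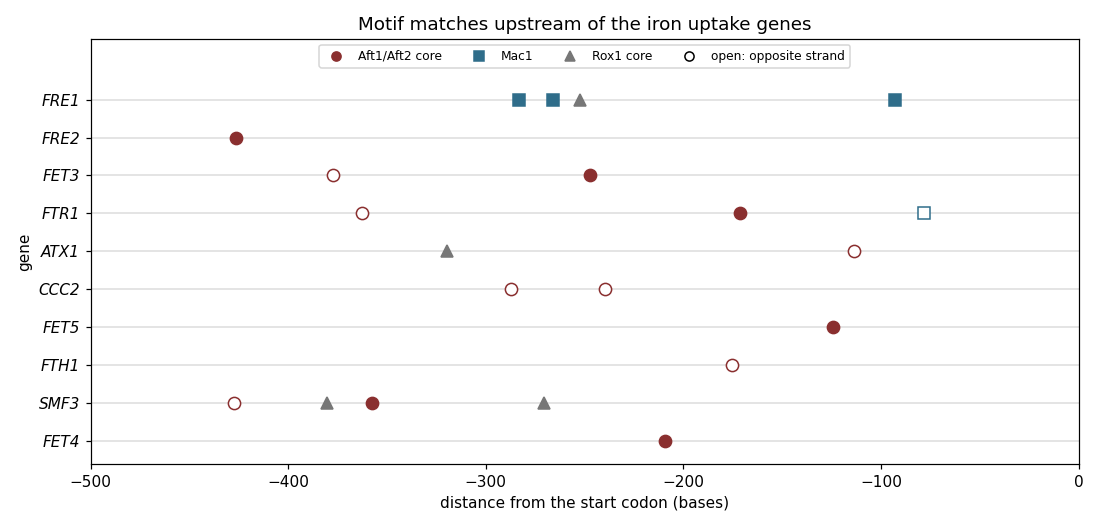
Positions of 3 motifs in the 500 bases before the start codon, with 1 row for each gene and the distance in bases on the horizontal axis. Filled marks lie on the strand of the gene and open marks on the opposite strand. The Aft1 and Aft2 core stands in 9 of the 10 rows, and the 3 Mac1 marks before FRE1 are the exception.

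Levels are given as CPM, which are counts scaled to a library of 1e+06 reads after TMM scaling for library size and composition. A gene was called when the adjusted p was under 0.05 and the fold change at least 2, in edgeR's quasi-likelihood test with Benjamini-Hochberg adjustment over 6262 genes, in which all 10 genes were tested. Across the 8 times 4 of the 10 genes were called, FET3, FTR1, FRE1 and CCC2, all with their largest change downward. Of all genes tested 19.8% were called in either direction, 658 with their largest change downward and 583 upward. After 240 min under nitrogen the transcripts of the reductase, the oxidase, the permease and the copper pump stood 3.65 to 20.2 times below their levels in air in the fit. FET5 and FET4 passed the test over time (adjusted p = 0.0052 and 0.0047) with largest changes under 2-fold, and FRE2, ATX1, FTH1 and SMF3 did not pass it. In RNA of a whole culture, fewer cells with a transcript and less of it in each cell cannot be told apart.

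**Figure D2:**
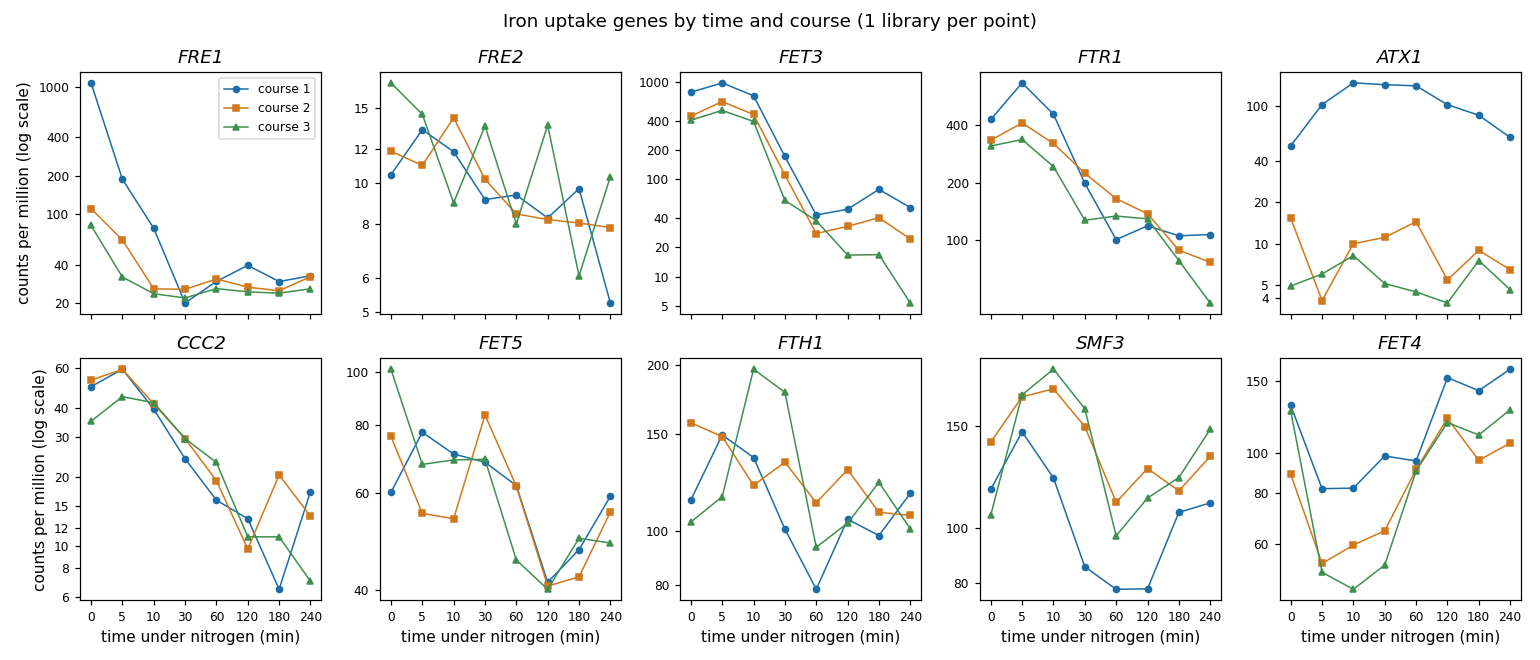
CPM of each gene, on a log axis that differs between panels, against time under nitrogen in min, evenly spaced, with 1 point for each library and 1 line for each course. FET3, FTR1 and CCC2 peak at 5 min in every course and then fall, FRE1 falls from 0 min, FET4 dips and returns, and ATX1 is higher in course 1 than in the other courses at every time.

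The reductase gene FRE1 (YLR214W, chrXII:568567-570627) was low from 10 min on. In course 1 its level was 1072 CPM at 0 min and then 188, 77.6, 20.1, 29.7, 39.7, 29.7 and 32.9 CPM at the 7 later times in order. In course 2 it was 111 CPM and then 62.9, 26.0, 25.8, 31.1, 26.8, 25.1 and 32.3 CPM. In course 3 it was 81.7 CPM and then 32.2, 23.8, 22.1, 26.1, 24.6, 24.04 and 26.0 CPM. The courses began far apart, with the course 1 culture in air far above the others, and ended together. From 10 min on, every library lay below every 0 min library. Its log2 fold change reached -4.22 by 30 min (standard error, SE, 0.81, edgeR adjusted p = 0.00054) and stood at -3.79 by 240 min (SE 0.80, adjusted p = 0.0014). The size rests on course 1, in which the level at 240 min was 32.6 times below that at 0 min, against 3.43 and 3.14 times in courses 2 and 3, and without course 1 the log2 fold change at 240 min was -1.65 (adjusted p = 6.8e-05). At 5 min FRE1 was lower in 3 of 3 courses, at -2.16 in the fit (SE 0.74), and was not called (adjusted p = 0.084), whereas with the course as a block it was called at -1.93 (adjusted p = 0.0082).

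FRE2 (YKL220C, chrXI:9091-11226), the second surface reductase, had few reads and moved little. Its levels at 0 min were 10.5, 11.9 and 17.1 CPM in courses 1 to 3 and those at 240 min 5.24, 7.87 and 10.35 CPM. The groups did not overlap but nearly met, and FRE2 was not called (log2 fold change -0.75, SE 0.35, edgeR adjusted p = 0.15). Per coding length, the log2 ratio of FRE1 to FRE2 was 6.73, 3.28 and 2.30 in courses 1 to 3 at 0 min, 1.19, 1.39 and 0.75 at 30 min and 2.70, 2.09 and 1.38 at 240 min. Over all 8 times this ratio was smallest at 30 min in courses 1 and 3 and at 10 min in course 2, at 0.92. Its mean at 0 min, 4.10 (SD 2.33, n = 3), rests on course 1.

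FET3 (YMR058W, chrXIII:388822-390732), which encodes the multicopper oxidase, had the deepest fall of the 10 genes at 240 min in the fit. In course 1 its levels at the 8 times in order were 786, 980.5, 722, 172, 43.0, 49.4, 78.9 and 51.5 CPM. In course 2 they were 446, 631, 464, 111, 27.8, 33.0, 40.4 and 24.4 CPM. In course 3 they were 406, 511, 394, 60.8, 37.7, 16.7, 16.9 and 5.38 CPM. FET3 was highest at 5 min in each course and below every 0 min library from 30 min on. Courses 1 and 2 levelled off after 60 min, and course 3 went on to fall to its last sample, which rests on 79 counts. The log2 fold change reached -2.25 by 30 min (SE 0.64, edgeR adjusted p = 0.013), then -4.05 by 120 min (SE 0.70, adjusted p = 0.00047) and finally -4.34 (SE 0.71, adjusted p = 0.00014). Within the courses the level at 240 min was 15.3, 18.3 and 75.4 times below that at 0 min. The call at 30 min was lost without course 2 (adjusted p = 0.21).

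Its partner FTR1 (YER145C, chrV:460526-461740), the permease gene, was called from 60 min on and with smaller changes, and the difference between both genes was not tested. In course 1 its levels at the 8 times were 428, 665.5, 456, 199, 101, 119, 106 and 107 CPM. In course 2 they were 334, 411, 321, 224, 165, 138, 88.9 and 76.8 CPM. In course 3 they were 311, 337, 243, 127, 134, 129.5, 78.4 and 47.1 CPM. FTR1 too was highest at 5 min in every course, and all later libraries from 30 min on lay below all 0 min libraries. The log2 fold change of -0.96 at 30 min (edgeR adjusted p = 0.028) was short of 2-fold. The changes of -1.42 at 60 min (SE 0.32, adjusted p = 0.0033), -1.47 at 120 min (SE 0.32, adjusted p = 0.0029) and -2.22 at 240 min (SE 0.33, adjusted p = 4.9e-05) were called. Both partners began at the same level per coding length and parted by 30 min: the log2 ratio of FET3 to FTR1 was -0.09 at 0 min (SD 0.27, n = 3), -0.06 at 5 min (SD 0.03), -1.42 at 30 min (SD 0.48) and -2.60 at 240 min (SD 1.07).

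The rise of FET3, FTR1 and CCC2 at 5 min was seen in 3 of 3 courses for each gene, by 1.25, 1.42 and 1.26 times for FET3, 1.55, 1.23 and 1.08 times for FTR1 and 1.19, 1.11 and 1.28 times for CCC2. None of the 3 was called at 5 min, with adjusted p of 0.95, 0.64 and 0.91 in edgeR and of 0.45, 0.27 and 0.62 with the course as a block. The step from air to 5 min also held the dilution.

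CCC2 (YDR270W, chrIV:1005675-1008689), the gene of the copper pump, fell with a course like that of FET3, from a far lower level in air. Per coding length it was still below FET3 in course 3 at 240 min, at 2.33 against 2.82 CPM per kb of coding sequence. In course 1 its levels at the 8 times were 49.6, 59.2, 39.6, 24.04, 15.9, 13.2, 6.47 and 17.3 CPM. In course 2 they were 53.1, 59.0, 41.8, 29.5, 19.3, 9.70, 20.4 and 13.5 CPM. In course 3 they were 35.1, 44.9, 42.3, 29.4, 23.2, 10.96, 10.96 and 7.02 CPM. All libraries from 30 min on lay below all 0 min libraries. CCC2 was not called at 30 min (log2 fold change -0.73, edgeR adjusted p = 0.12). It was called at 60 min at -1.24 (SE 0.34, adjusted p = 0.013), at 120 min at -2.03 (SE 0.34, adjusted p = 0.00043) and at 240 min at -1.87 (SE 0.34, adjusted p = 0.00044). Within the courses the level at 240 min was 2.87, 3.93 and 5.00 times below that at 0 min.

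ATX1 (YNL259C, chrXIV:157644-157865), the copper chaperone gene and with 222 coding bases the shortest of the 10, differed more between courses than between times. Its levels were 51.1 to 147 CPM in course 1, 3.86 to 15.3 CPM in course 2 and 3.70 to 8.17 CPM in course 3. No library of courses 2 and 3 reached the lowest of course 1. Its log2 fold change at 240 min was -0.03 with a SE of 1.70 (edgeR adjusted p = 0.99), and with the course as a block it was -0.45 (SE 0.38, adjusted p = 0.37). The source of the difference between courses was not tested.

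The vacuolar pair, the oxidase gene FET5 (YFL041W, chrVI:49139-51007) and the permease gene FTH1 (YBR207W, chrII:635146-636543), stayed within a far narrower range than the pair at the cell surface. FET5 stood at 60.3, 76.3 and 101 CPM at 0 min, 41.3, 40.6 and 40.1 CPM at 120 min and 59.3, 55.5 and 48.7 CPM at 240 min in courses 1 to 3. Its lowest value fell at 120 min in each course, where the 3 libraries agreed closely and lay below all 0 min libraries. The log2 fold change at 120 min was -0.96 (SE 0.19, edgeR adjusted p = 0.0014), just under 2-fold and so not called, and that at 240 min was -0.54 (adjusted p = 0.043). Without course 1 the change at 120 min was -1.06 (adjusted p = 0.00065) and was called. FTH1 stood at 114, 157 and 104 CPM at 0 min and at 117, 107 and 101 CPM at 240 min, groups that overlap, with a log2 fold change of -0.21 (SE 0.22, adjusted p = 0.62).

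SMF3 (YLR034C, chrXII:210512-211933), which encodes a vacuolar divalent metal transporter, went up and down within a range of less than 2-fold in each course. Its levels at the 8 times were 117, 147, 122, 85.5, 78.1, 78.2, 106 and 110.4 CPM in course 1. They were 141, 169, 174, 149.9, 111, 127, 116 and 133 CPM in course 2. They were 105, 170.3, 189, 161, 96.7, 113, 122 and 148 CPM in course 3. The 5 min value was above the 0 min value and the 60 min value was the lowest in every course. The test over time was not passed (edgeR adjusted p = 0.12), whereas with the course as a block it was (adjusted p = 0.00098), with a largest log2 change of 0.42, below 2-fold. At 240 min the log2 fold change was 0.11 (SE 0.23, adjusted p = 0.85).

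FET4 (YMR319C, chrXIII:912880-914538), the low-affinity transporter gene, dipped early and returned. In course 1 its levels at the 8 times were 131, 81.8, 82.1, 98.4, 95.7, 153, 142 and 161 CPM. In course 2 they were 88.8, 53.6, 59.5, 64.5, 91.2, 122, 96.1 and 106 CPM. In course 3 they were 127, 51.0, 46.3, 53.2, 90.4, 119, 111 and 128 CPM. All 5 min libraries lay below all 0 min libraries, and at 240 min each course stood at or above its own start, by 1.23, 1.19 and 1.01 times. The log2 fold change was -0.89 at 5 min (SE 0.26, edgeR adjusted p = 0.036), under 2-fold, and 0.19 at 240 min (SE 0.26, adjusted p = 0.73). With the course as a block the adjusted p at 5 min was 0.00018 at -0.92, still under 2-fold, and that at 240 min 0.40 at 0.17.

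**Figure D3:**
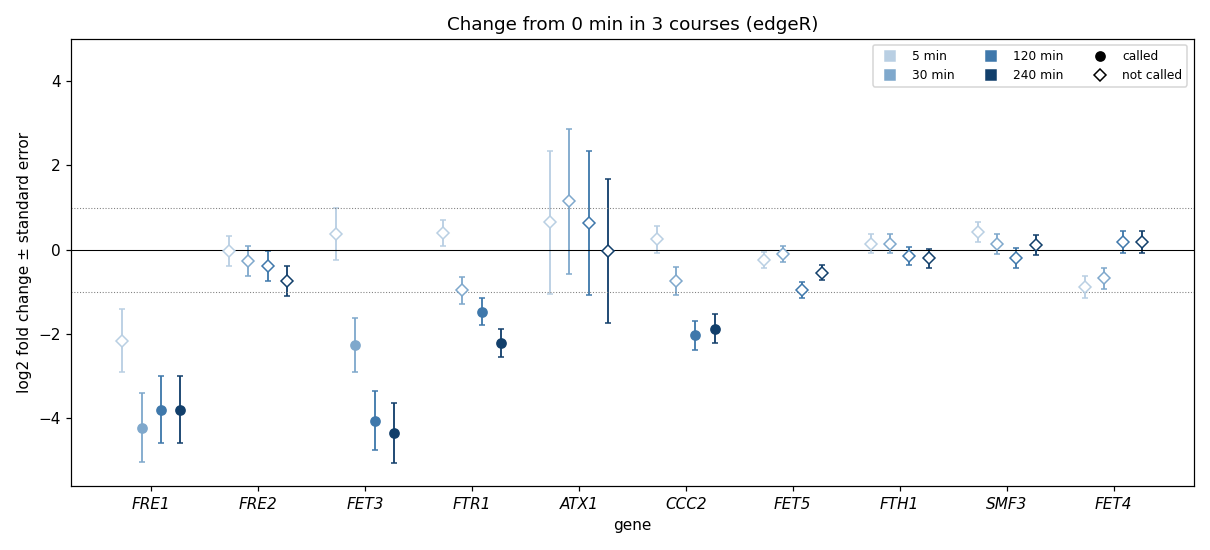
Log2 fold change from 0 min at 5, 30, 120 and 240 min for each gene, with bars of 1 SE from edgeR and 3 libraries at each time. Filled circles were called, open diamonds were not, and the dotted lines mark 2-fold. All called points are downward and belong to FRE1, FET3, FTR1 and CCC2, and the wide bars of ATX1 are those of a gene whose courses differ.

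Counted by comparison, 0 of the 10 genes were called at 5 min, where edgeR called 3.16% of all genes higher and 2.76% lower. The unadjusted p was under 0.05 for FRE1 and FET4, and 1 gene, FRE1, was called lower with the course as a block, which called 3.77% of all genes lower, and by DESeq2, which called 2.99%. At 30 min FET3 and FRE1 were called lower, 2 of 10 against 9.55% of all genes, and none higher against 8.29%. At 120 min FET3, FTR1, FRE1 and CCC2 were called lower, 4 of 10 against 5.37%, and none higher against 5.03%. All 4 calls at 120 min were lost without course 2, with edgeR adjusted p of 0.10, 0.15, 0.10 and 0.084. Without that course 23 of 6319 genes were called lower at 120 min, against 336 of 6262 with all 3 courses. At 240 min the same 4 genes were called lower, against 8.43% of all genes, and none higher against 7.14%, and without course 2 only FRE1 lost its call (adjusted p = 0.05). From 120 to 240 min 0 of 10 were called by edgeR, with or without the block, or by DESeq2. Without the block edgeR called 0.16% of all genes higher and 0.144% lower. With it 26 genes were higher and 38 lower, and by DESeq2 18 and 27. FTR1 and FET5 had an unadjusted p under 0.05 in that comparison, and without course 1 FTR1 was called lower at -1.13 (adjusted p = 0.019). The median log2 fold change of the 10 genes was 0.19 at 5 min, against -0.05 for all genes. It was -0.47 at 30 min, against 0.01, and -0.64 at 240 min, against -0.02. These comparisons share the 0 min libraries.

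The scaling bears on how changes of all genes split. With total counts in place of TMM the median of all genes moved up by 0.12, 0.23, 0.24 and 0.26 log2 units at 5, 30, 120 and 240 min. The genes called higher and lower were then 232 and 122 in place of 198 and 173 after 5 min, 676 and 439 in place of 519 and 598 at 30 min, 449 and 185 in place of 315 and 336 at 120 min, 647 and 335 in place of 447 and 528 at 240 min, and 768 and 484 in place of 583 and 658 over time. The calls among the 10 genes numbered the same in each of these comparisons. A ratio of 2 genes in the same library does not depend on that scaling, and it is given next.

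The transcripts of the high-affinity oxidase FET3 and of the low-affinity transporter FET4 changed places in order of level. Per coding length, FET3 had 5.21, 4.36 and 2.78 times as many reads as FET4 at 0 min in courses 1 to 3. At 5 min it had 10.4, 10.2 and 8.69 times as many. At 30 min the ratios were 1.52, 1.49 and 0.99, and from 60 min on FET4 was ahead in all libraries. At 240 min FET4 had 3.60, 4.99 and 27.4 times as many reads as FET3. On the log2 scale the mean ratio of FET3 to FET4 went from 1.99 at 0 min (SD 0.47, n = 3) through 3.28 at 5 min (SD 0.14) and 0.39 at 30 min (SD 0.35) to -2.98 at 240 min (SD 1.57). The high-affinity permease FTR1 came near the level of FET4 in courses 1 and 2 and fell below it in course 3. FTR1 had 4.47, 5.13 and 3.35 times as many reads as FET4 at 0 min, 1.06, 1.55 and 1.49 times at 120 min and 0.91, 0.99 and 0.50 times at 240 min. Beside its vacuolar relative FTH1, FTR1 came near level in course 1 and fell below in courses 2 and 3. It was 4.32, 2.44 and 3.44 times as high as FTH1 per coding length at 0 min and 1.05, 0.83 and 0.54 times at 240 min.

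**Figure D4:**
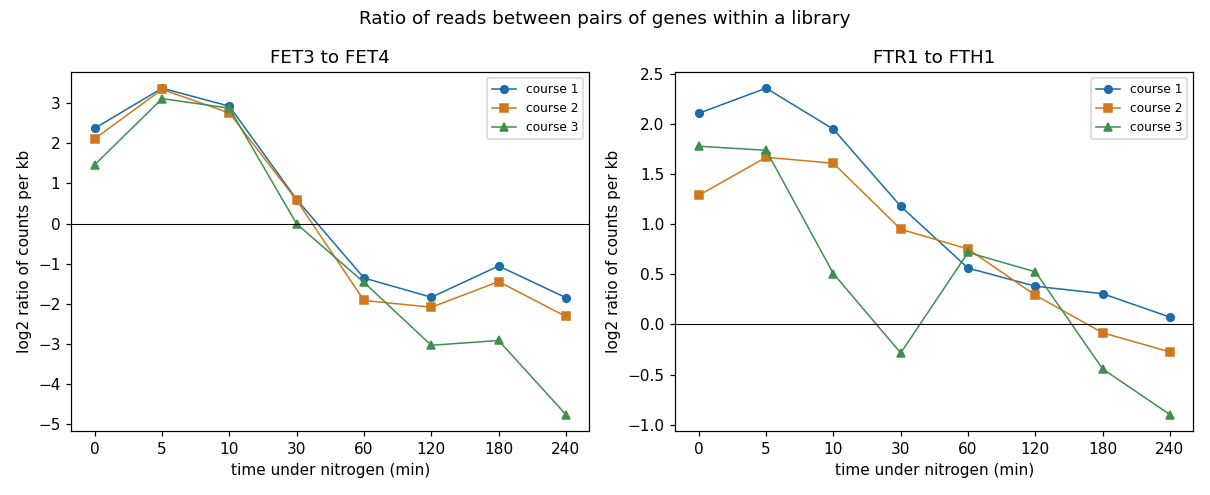
Log2 ratio of counts per kb of coding sequence between FET3 and FET4 (left) and between FTR1 and FTH1 (right) in each library, against time under nitrogen in min, with 1 line for each course. FET3 leads FET4 until 10 min in every course and trails it from 60 min on.

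By level per coding length, FTR1 and FET3 led at 0 min with 294.5 ± 51.2 and 286 ± 109 CPM per kb (SD, n = 3), which do not differ beyond their spread. FRE1 at 204 ± 273 and ATX1 at 107 ± 109 had spreads as large as their means. FTH1 at 89.5 ± 20.3, SMF3 at 85.0 ± 12.8 and FET4 at 69.6 ± 14.02 formed a middle group whose neighbours overlap, above FET5 at 42.4 ± 11.1, CCC2 at 15.2 ± 3.17 and FRE2 at 6.16 ± 1.65. At 240 min SMF3 at 91.8 ± 13.4, FET4 at 79.2 ± 16.7, FTH1 at 77.5 ± 5.83 and FTR1 at 63.4 ± 24.7 overlapped at the top together with ATX1 at 105 ± 139. FET3, at 14.2 ± 12.1, now stood beside FRE1 at 14.8 ± 1.84.

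**Figure D5:**
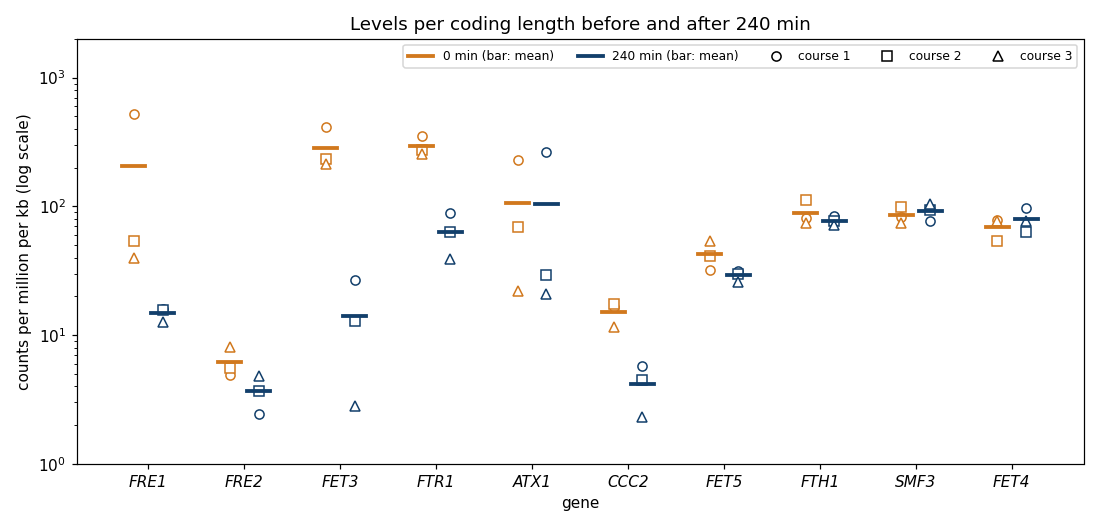
CPM per kb of coding sequence on a log axis at 0 min (orange) and 240 min (blue) for each gene, with 1 mark for each course and a bar at the mean of 3 libraries. The means of FTR1 and FET3 stand highest at 0 min, and the bars of FTH1, SMF3 and FET4 are nearly level between both times. The course 1 mark lies far above the other marks for FRE1 at 0 min only and for ATX1 at both times.

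How alike the courses of 2 genes were is given as Pearson's r of log2 CPM over the 24 libraries after the mean of each course was subtracted, as a description over libraries that share times and scaling. The r was 0.94 between FET3 and FTR1, 0.91 between FET3 and CCC2 and 0.90 between FTR1 and CCC2. Between FET3 and FET4 it was -0.65. Outside the 10 genes, the transcripts most like FET3 were COX13 at 0.97 and COX12 at 0.97, which encode subunits of cytochrome c oxidase, and HYP2 at 0.96, which encodes the aerobic form of the translation factor eIF5A. Those most like FET4 were QDR3 at 0.93, which encodes a multidrug transporter, INO2 at 0.89, which encodes an activator of phospholipid synthesis genes, and LEC1 at 0.89. At 240 min COX12 was lower at -2.68 (SE 0.25, edgeR adjusted p = 4.5e-07), and INO2 stood at 0.71 (adjusted p = 0.04), under 2-fold.

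Genes around the pathway were read from lists chosen by function, with earlier results of these data known. Of 7 siderophore uptake genes, ARN1, SIT1 and ENB1 were called lower over time and 4 were not called, and at 240 min only ENB1, the enterobactin transporter gene, was lower, at -1.35 (edgeR adjusted p = 8e-04). Of all genes 19.8% were called over time in either direction, and 8.43% were called lower at 240 min. SIT1, a ferrioxamine transporter gene, was called lower at 120 min at -1.60 (adjusted p = 0.04) and stood at -0.61 at 240 min (adjusted p = 0.47), not called. With the course as a block 4 of the 7 were lower and 1 higher over time, in a fit that called 29.2% of all genes over time in place of 19.8%. Of 6 other ferric reductase genes, FRE4 alone was called over time, with a largest change of -2.41 (adjusted p = 0.027), and none at 240 min, whereas the block called FRE8 higher and FRE4 lower there, with 9.15% of all genes higher and 10.5% lower.

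Of 9 genes of intracellular iron transport and iron sparing, HMX1, the heme oxygenase gene, was called lower at 240 min at -3.74 (SE 1.04, edgeR adjusted p = 0.012) and the other 8 were not, against 8.43% of all genes. ISU2, a gene of the scaffold for iron-sulfur clusters, was called lower at 30 min only, at -1.85 (adjusted p = 0.02). With the course as a block 2 of the 9 were lower over time in place of 1, where 29.2% of all genes were called in place of 19.8%. Of 7 regulators of iron genes (AFT1, AFT2, YAP5, GRX3, GRX4, FRA1 and BOL2) none was called in any comparison by edgeR, with or without the block. Without it only AFT1 had an unadjusted p under 0.05, at 30 and 120 min, and with it AFT1, AFT2, YAP5, FRA1 and BOL2 each did in 1 or more comparisons. At 120 min AFT1 stood at -0.83 (edgeR adjusted p = 0.051), and with the block at -0.88 (adjusted p = 0.00067), in both cases under 2-fold. AFT1 had levels of 86.5, 93.8 and 74.5 CPM at 0 min and 45.7, 71.5 and 69.8 CPM at 240 min, with a log2 fold change of -0.45 (SE 0.28, adjusted p = 0.31).

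Of 8 copper genes none was called over time, and CTR1, the high-affinity copper transporter gene, was called lower at 30 min at -1.99 (edgeR adjusted p = 0.029). With the block COX17 was higher and CTR1 and CTR3 were lower over time, where the block called 29.2% of all genes. The block also called CTR1 lower at 5 min at -1.61 (adjusted p = 0.0019), at 120 min at -1.52 (adjusted p = 0.0017) and at 240 min at -1.32 (adjusted p = 0.0039). At these times it called 3.77%, 6.95% and 10.5% of all genes lower. Of 5 other metal transporter and zinc genes, ZRT1, the high-affinity zinc transporter gene, was called lower at 240 min at -1.84 (SE 0.41, adjusted p = 0.0023), against 8.43% of all genes. Of 7 genes listed with Rox1, that of the repressor included, 5 were called higher at 240 min, against 7.14% of all genes. They were ANB1, HEM13, AAC3, COX5B and HMG2. OLE1, the fatty acid desaturase gene, was called lower over time, with a largest change of -2.83 (edgeR adjusted p = 3e-05), and lower at 30 min at -1.68 (adjusted p = 0.0078), and it stood at 0.82 at 240 min (adjusted p = 0.21). On the log2 scale ANB1 rose by 7.35 (SE 0.86, adjusted p = 4.7e-06), and ROX1 itself was lower at -2.62 (SE 0.57, adjusted p = 0.0019), at 113, 78.03 and 76.9 CPM at 0 min and 22.0, 18.8 and 3.13 CPM at 240 min.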

How the data were processed

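The deposited values are counts of reads per annotated feature, 7140 per library. The authors made them by mapping with TopHat2 to build R64 and counting with HTSeq, whose versions are not given in the sources used here. Features with low counts were removed (filterByExpr on the times), which left 6262 genes. Counts were fitted in edgeR 4.0.16 (R 4.3.3) with TMM factors and time as a factor over all 24 libraries, with 16 residual degrees of freedom and a biological coefficient of variation of 0.59. The 10 genes and the gene lists were chosen with earlier results of these data known. The genes named are the 10, the called genes with the largest changes in each list, the list of iron regulators, and the 3 genes most like FET3 and FET4. Reads of near-identical copies were not resolved. Course numbers pair libraries, as the series text names 3 replicates of the time course: residuals from the mean of each time correlated within courses at 0.77 to 0.92, 0.59 to 0.77 and 0.48 to 0.77 (28 pairs each). Genome coordinates and upstream sequence are those of the RefSeq copy of R64, in which no gene overlaps any of the 10. Alternatives were the course as a block, DESeq2 1.42.0, scaling by RLE factors or by total counts, tests without the filter or without the minimum fold, time with its square and each course left out. The fit was tested on simulated data.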

Additional observations from a re-analysis of the deposited data

How the results depend on the processing

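Of 540 comparisons of a value of 1 of the 10 genes with its value under an alternative, 488 kept direction and call, none that was called reversed, 37 changed sign while called in neither fit (up to -1.05 for ATX1 at 120 min without course 1), 6 lost a call and 9 gained one. The number of the 10 genes called at 5 min rose from 0 to 1 with the course as a replicate block (FRE1), in DESeq2 (FRE1) and without a minimum fold (FET4). Leaving out 1 course in turn gave 1 to 2 called genes of the 10 at 30 min, 0 to 5 at 120 min, 3 to 4 at 240 min and 0 to 1 from 120 to 240 min. The block changed no other call among the 10 genes. Among all genes, leaving out 1 course gave 340 to 2065 calls over time against 1241, 4 to 778 at 5 min against 371, 666 to 1576 at 30 min against 1117, 81 to 1082 at 120 min against 651, 375 to 1420 at 240 min against 975 and 1 to 83 from 120 to 240 min against 19. Time with its square gave 483 calls over time, dropping the minimum fold 1013 at 120 min, and from 120 to 240 min the block gave 64 and DESeq2 45. The causes were not tested. ATX1 had 20 to 160 counts in courses 2 and 3 and differed most between courses. At 240 min the standard errors ran from 0.19 (FET5) to 1.70 (ATX1) on the log2 scale. With the course as a block that of ATX1 was 0.38, and the largest was 0.55 (FRE1).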
